A study of Sus scrofa with 59 samples.

Results

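PER1, DBP and BHLHE40 are 3 genes through which the circadian clock reaches other genes, and they were taken here by the gene symbols of the array's annotation. They are 3 of the 6765 genes named on the array, and they hold 5 of its 23999 probe sets other than controls. Each was followed over 59 arrays of longissimus dorsi, the long loin muscle of the back, with 1 array per pig. The pigs were LD/LW x Duroc crosses, 170 days old, raised on 1 farm with free access to feed, and the muscle went into liquid nitrogen as it was sampled after slaughter. All 59 form a single group with no treatment and no control, so every comparison below is between pigs that differ in the level of a gene. The labels tie no time of slaughter, sex, array batch or muscle trait to a pig. Muscle was measured as whole tissue: 10 skeletal muscle markers lay between a mean of 12.95 (DES) and 14.79 (TNNC2) on the array's log2 scale.

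In the clock, the proteins CLOCK and BMAL1 (gene ARNTL) pair up and switch on genes whose products later shut the pair down. PER1 is one of those repressors, and it is also switched on directly by glucocorticoids and by signals through cAMP. DBP is a transcription factor that carries the rhythm outward by binding D-box elements, where NFIL3, a repressor, competes for the same sites. BHLHE40 (also called DEC1) is a repressor that binds the same E-box elements as CLOCK and BMAL1, and it also responds to hypoxia and to other stresses. Skeletal muscle has its own clock, and genes of fuel use are among its known outputs.

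The 3 genes differed in brightness on the array. PER1 had a mean of 10.61 ± 0.37 log2 (SD, n = 59), with the lowest value 9.88 in pig 30, the median 10.64 and the highest 11.48 in pig 1. DBP had a mean of 8.65 ± 0.29 (SD, n = 59), from 8.03 in pig 32 over a median of 8.65 to 9.26 in pig 16. BHLHE40 had a mean of 6.58 ± 0.29 (SD, n = 59), from 5.87 in pig 52 over a median of 6.55 to 7.28 in pig 18. Against the median level of all probe sets, 6.27, BHLHE40 was only slightly brighter, and probes of different genes differ in brightness for reasons other than RNA level. The SD of PER1 exceeded that of 87.4% of the 12000 probe sets tested, that of DBP 75.0% and that of BHLHE40 74.7%.

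**Figure D1:**
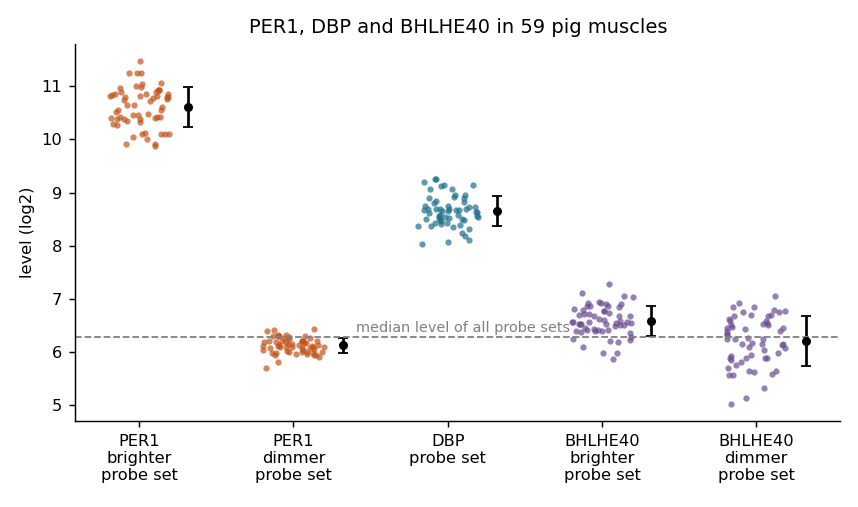
Level on a log2 scale of the 5 probe sets of PER1, DBP and BHLHE40, 1 point per pig (n = 59), with the mean and SD as a black point and bar. The dashed line is the median level of all probe sets, 6.27; both dimmer probe sets centre below it, and the brighter BHLHE40 probe set centres at 6.58, not far above it.

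Both PER1 and BHLHE40 have a second probe set, and neither second probe set followed the first. The second of PER1 had a mean of 6.12 with an SD of 0.15 and correlated with the brighter one at r = 0.017. The second of BHLHE40 had a mean of 6.20 with an SD of 0.46, from 5.02 in pig 41 to 7.05 in pig 64, and correlated with the brighter one at r = 0.169. Both fell below the filter, and the brighter probe set stands for each gene below. For BHLHE40 the 2 are close in brightness and give different answers, so some of its values are given with both. Where the dimmer probe set is not named, a BHLHE40 value is from the brighter one alone. Whether the dimmer gives the same is then not shown. DBP has 1 probe set, and no second reading of it could be made.

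Each pair of the 3 genes was then compared over the pigs, as 3 of 12 correlations tested together by two-sided permutation with Benjamini-Hochberg adjustment. DBP and BHLHE40 rose and fell together, with Pearson r = 0.415 (95% interval 0.178 to 0.607, permutation p = 0.00104, adjusted p = 0.00416) and Spearman rho = 0.396 (permutation p = 0.0019, adjusted p = 0.0114). With the 2 most extreme DBP pigs, those farthest from its median, left out, r was 0.378 (permutation adjusted p = 0.0164). With the dimmer BHLHE40 probe set, r with DBP was -0.127 (permutation adjusted p = 0.338), so the relation was seen with the brighter probe set alone. The first principal component of the array data, which holds 20.0% of the variance, correlated with DBP at r = -0.758 and with BHLHE40 at r = -0.533; given that component, the correlation between these genes was 0.021 (permutation adjusted p = 0.955).

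PER1 stood apart from both. Its r with DBP was 0.178 (95% interval -0.082 to 0.415, permutation p = 0.180, adjusted p = 0.270; rho = 0.201, permutation p = 0.127, adjusted p = 0.218). Its r with BHLHE40 was 0.220 (95% interval -0.038 to 0.451, permutation p = 0.0940, adjusted p = 0.188; rho = 0.211, permutation p = 0.107, adjusted p = 0.214). Neither passed the threshold of 0.05, and both intervals reach well above 0. With the 2 most extreme PER1 pigs left out, PER1 and BHLHE40 reached r = 0.316 (permutation adjusted p = 0.0385). PER1 had r = 0.042 with the first principal component.

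The 3 pairs were also compared with the early response score held constant. That score is the mean, in SD units, of 22 measured genes that cells switch on within a short time of a stimulus, none of them a clock gene. Given the score, PER1 correlated with DBP at r = 0.384 (permutation adjusted p = 0.0081) and with BHLHE40 at r = 0.364 (permutation adjusted p = 0.0101), and DBP with BHLHE40 at r = 0.386 (permutation adjusted p = 0.0081). All 3 partial correlations were above 0 and passed. The change in r from the values without the score was not itself tested.

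**Figure D2:**
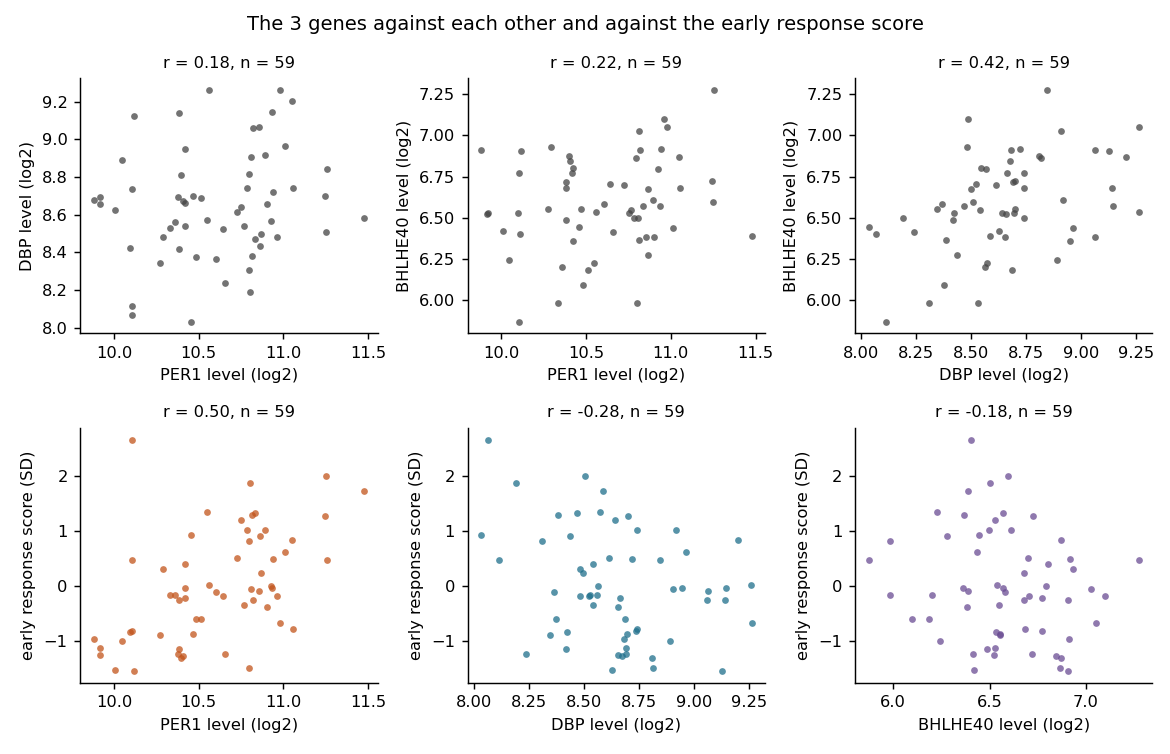
Top, the level (log2) of each of the 3 genes against another; bottom, the early response score (mean of 22 standardised genes, in SD units) against each gene; 1 point per pig, n = 59. DBP with BHLHE40 (r = 0.42) and PER1 with the score (r = 0.50) are the panels with a clear slope, and the points of PER1 against DBP (r = 0.18) spread widely.

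Links to all other genes were measured as slopes, the log2 change of a probe set per SD of the clock gene, with limma and Benjamini-Hochberg adjustment over all probe sets tested. PER1 had few partners: 33 of 11999 probe sets (0.275%) passed, 25 (0.208%) higher and 8 (0.0667%) lower in pigs with more PER1, and 1045 had an unadjusted p under 0.05. DBP had 4621 (38.5%), 2263 higher and 2358 lower. BHLHE40 had 3352 (27.9%), 1568 higher and 1784 lower. The number for PER1 was 18 without pig 1 and 59 without pig 36. Quantile normalisation of the arrays gave PER1 29 higher and 21 lower. Of the 33 that passed with PER1, 6 (18.2%) also passed with DBP and 3 (9.09%) with BHLHE40, beside 38.5% and 27.9% of all probe sets. Only 1 of the 6 had the same sign with PER1 as with DBP, while all 3 had the same sign with PER1 as with BHLHE40. Both DBP and BHLHE40 passed with 2295, all 2295 with the same sign. They made up 49.7% of the probe sets that passed with DBP and 68.5% of those with BHLHE40. No probe set passed with all 3 genes by limma. With each of the 3, 183 had an unadjusted p under 0.05, 152 of them with 1 sign throughout, and no other tool was run.

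Of the remaining clock genes, NFIL3 and ARNTL ran against DBP. Of 29 listed clock genes 8 were on the array, and all 8 were tested. Over all probe sets, 19.7% were lower and 18.9% higher with DBP. NFIL3, the repressor that shares DBP's binding sites, had levels from 6.27 over a median of 7.32 to 10.51. It was lower in pigs with more DBP, by 0.54 ± 0.07 log2 (SE) per SD of DBP (r = -0.688, limma adjusted p = 7.1e-08). ARNTL, from 5.81 over a median of 6.59 to 7.68, was lower as well, by 0.27 ± 0.04 log2 (SE) per SD (r = -0.634, limma adjusted p = 1.29e-06). The lowest DBP, in pig 32, came with the second highest ARNTL, 7.64, and an NFIL3 of 9.18. The highest DBP, in pig 16, came with an ARNTL of 6.11 and an NFIL3 of 6.95, both near the low end. Given the first principal component, neither passed (limma adjusted p = 0.240 for ARNTL and 0.613 for NFIL3).

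BHLHE40 shared part of this pattern, beside 14.9% of all probe sets lower and 13.1% higher with it. NFIL3 was lower with more BHLHE40 (r = -0.466, limma adjusted p = 0.00199), while ARNTL had r = -0.092 (limma adjusted p = 0.623). The slope of ARNTL differed between DBP and BHLHE40 when that difference was itself tested (limma adjusted p = 0.0157). CRY2, a partner of the PER proteins in repression, and RORA, an activator of ARNTL, were higher with more BHLHE40 (r = 0.327, limma adjusted p = 0.0421, and r = 0.335, limma adjusted p = 0.0351). None of the clock genes passed limma with the dimmer BHLHE40 probe set, and 1 had an unadjusted p under 0.05.

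No clock gene passed limma with PER1, and CRY2 was the 1 with an unadjusted p under 0.05. It had r = 0.447 (limma adjusted p = 0.0875, and 0.0248 given the first principal component). ARNTL had r = -0.213 and NFIL3 r = -0.051 with PER1, and both slopes differed from those with DBP (limma adjusted p of the difference 0.0374 and 6.8e-04). CSNK1D, the kinase that marks PER proteins for removal, passed with none of the 3 genes, with r from -0.123 to 0.098.

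The early response genes followed PER1 more than DBP, and more than BHLHE40 by its brighter probe set. The score correlated with PER1 at r = 0.501 (95% interval 0.281 to 0.671, permutation p = 7.0e-05, adjusted p = 0.00084) and rho = 0.515 (permutation p = 8.0e-05, adjusted p = 0.00096). It was 0.450 with the 2 most extreme PER1 pigs left out (permutation adjusted p = 0.00516). With DBP the score had r = -0.283 (95% interval -0.502 to -0.029, permutation p = 0.0302, adjusted p = 0.0726; rho = -0.225, permutation p = 0.0863, adjusted p = 0.207), which did not pass; without pig 4, 9, 13, 28 or 63 it did, with r down to -0.324. The score itself had r = 0.582 with the first principal component. Given that component the sign with DBP turned, to 0.299 (permutation adjusted p = 0.0612). With BHLHE40 the score had r = -0.180 (permutation p = 0.174, adjusted p = 0.270; rho = -0.183, permutation p = 0.165, adjusted p = 0.230) by the brighter probe set and 0.273 (permutation adjusted p = 0.0623) by the dimmer.

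Gene by gene, all 22 early response genes had a slope above 0 with PER1, and 3 of them passed as higher, beside 0.208% of all probe sets. The median slope over the 22 was 0.18, against -0.0009 over all genes, and 17 had an unadjusted p under 0.05, as had 1045 of all 11999 probe sets. BTG2, a brake on cell division, ran from 9.57 to 12.88 and rose by 0.47 ± 0.08 log2 (SE) per SD of PER1 (r = 0.601, limma adjusted p = 7.2e-04). CYR61, a secreted matrix protein, rose by 0.51 ± 0.10 (r = 0.564, limma adjusted p = 0.00191). NR4A2, an orphan nuclear receptor, rose by 0.47 ± 0.09 (r = 0.555, limma adjusted p = 0.00269). FOS and EGR1, the textbook members of the group, had r = 0.410 and 0.357 and did not pass (limma adjusted p = 0.138 and 0.249).

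With DBP, 8 of the 22 were lower and 1 was higher, beside 19.7% and 18.9% of all probe sets. The lower ones were led by GADD45A, a DNA damage response gene (r = -0.651, limma adjusted p = 4.4e-07), FOSL2, a FOS relative (r = -0.645, limma adjusted p = 6.8e-07), and ATF3, a stress-induced repressor (r = -0.526, limma adjusted p = 1.1e-04). PPP1R15A, MYC, NR4A3, GADD45G and IER3 completed them. NR4A2 was higher with DBP (r = 0.348, limma adjusted p = 0.0180), as it was with PER1. With BHLHE40, IER3, GADD45A, FOSL2 and IER2 were lower and none was higher, beside 14.9% of all probe sets lower; by the dimmer probe set 1 was higher and none lower.

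The contrast was tested directly. Of 11998 probe sets, 3286 (27.4%) had a slope that differed between PER1 and DBP, and among the early response genes it was 17 of 22, each with the more positive slope on the side of PER1, beside 14.0% of all probe sets more positive with PER1 and 13.4% with DBP. The slope on that difference was largest for ATF3, 0.84 ± 0.09 log2 (SE) per SD of standardised PER1 minus DBP (limma adjusted p = 3.4e-09). This is not the PER1 slope minus the DBP slope. Given the first principal component, 296 probe sets differed between PER1 and DBP. Between PER1 and BHLHE40 1114 probe sets differed (9.28%), and 15 of the 22 did, again all more positive with PER1, beside 5.24% of all probe sets more positive with PER1 and 4.04% with BHLHE40. That total hangs on single pigs: it was 300 without pig 5, 388 without pig 30, 623 without pig 48, 705 without pig 54, 722 without pig 60 and 1799 without pig 36. With the dimmer BHLHE40 probe set the total was 5, and with the mean of a gene's probe sets 7. The 15 of 22 is thus a result of the brighter probe set alone. Quantile normalisation turned the split of the 1114 from 629 against 485 to 423 more positive with PER1 against 579 with BHLHE40. Between DBP and BHLHE40 218 differed (1.82%), 1.29% more positive with DBP and 0.525% with BHLHE40, with GADD45G the 1 early response gene among them (limma adjusted p = 0.0134). That total was 54 without pig 26, 93 without pig 38, 135 without pig 59, 134 without pig 67, 51 without pig 68 and 357 without pig 36, and 3618 with the dimmer BHLHE40 probe set.

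Of 15 measured glucocorticoid response genes, 3 were higher with more PER1 and none was lower, beside 0.208% and 0.0667% of all probe sets. KLF9, a repressor that is itself a glucocorticoid target, ran from 11.38 to 12.53 and rose by 0.16 ± 0.03 log2 (SE) per SD of PER1 (r = 0.595, limma adjusted p = 8.2e-04). KLF15, a regulator of amino acid and lipid use in muscle, rose by 0.23 ± 0.05 (r = 0.551, limma adjusted p = 0.00349). CEBPB, a transcription factor of the acute response, rose by 0.15 ± 0.04 (r = 0.489, limma adjusted p = 0.0254). Pig 1, with the highest PER1, also had the highest KLF9 (12.53), KLF15 (9.81) and BTG2 (12.88) of the 59.

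KLF9 and KLF15 kept their link to PER1 when the early response score was held constant (limma adjusted p = 5.4e-04 and 1.2e-04). BTG2, CYR61 and NR4A2 did not (limma adjusted p = 0.0567, 0.159 and 0.0634), and these 3 are themselves part of that score. CEBPB, a glucocorticoid response gene outside the score, did not either (limma adjusted p = 0.121). The other genes above the threshold with PER1 were AGTR1, an angiotensin receptor (r = 0.498), and ETS2, a transcription factor (r = 0.492), both higher, and POGK (r = -0.517) and FANCF, a DNA repair gene (r = -0.477), both lower. Given the score, AGTR1 and POGK still passed (limma adjusted p = 0.00582 and 0.00338). ETS2 and FANCF did not (limma adjusted p = 0.207 and 0.0538). With the 2 most extreme PER1 pigs left out, AGTR1, ETS2, CEBPB, POGK and FANCF no longer passed (limma adjusted p = 0.174, 0.0742, 0.164, 0.0593 and 0.270). Of the 33 probe sets that passed, 22 carry no single gene symbol.

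With DBP, 6 of the 15 glucocorticoid response genes were lower and none higher, beside 19.7% and 18.9% of all probe sets. They were CEBPD (r = -0.626, limma adjusted p = 1.7e-06), FOXO1, PDK4, FKBP5, HSD11B1 and CEBPB. Of the 3 that rose with PER1, CEBPB was thus lower with DBP, while KLF9 and KLF15 did not pass with DBP (r = 0.115 and 0.262, limma adjusted p = 0.506 and 0.0900). The slope differed between PER1 and DBP for 7 of the 15, each more positive with PER1, CEBPB and KLF9 among them (limma adjusted p = 9.4e-06 and 0.0164) and KLF15 not (limma adjusted p = 0.181). With BHLHE40, KLF15 was higher (r = 0.352, limma adjusted p = 0.0240) and PDK4 lower (r = -0.331, limma adjusted p = 0.0380).

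**Figure D3:**
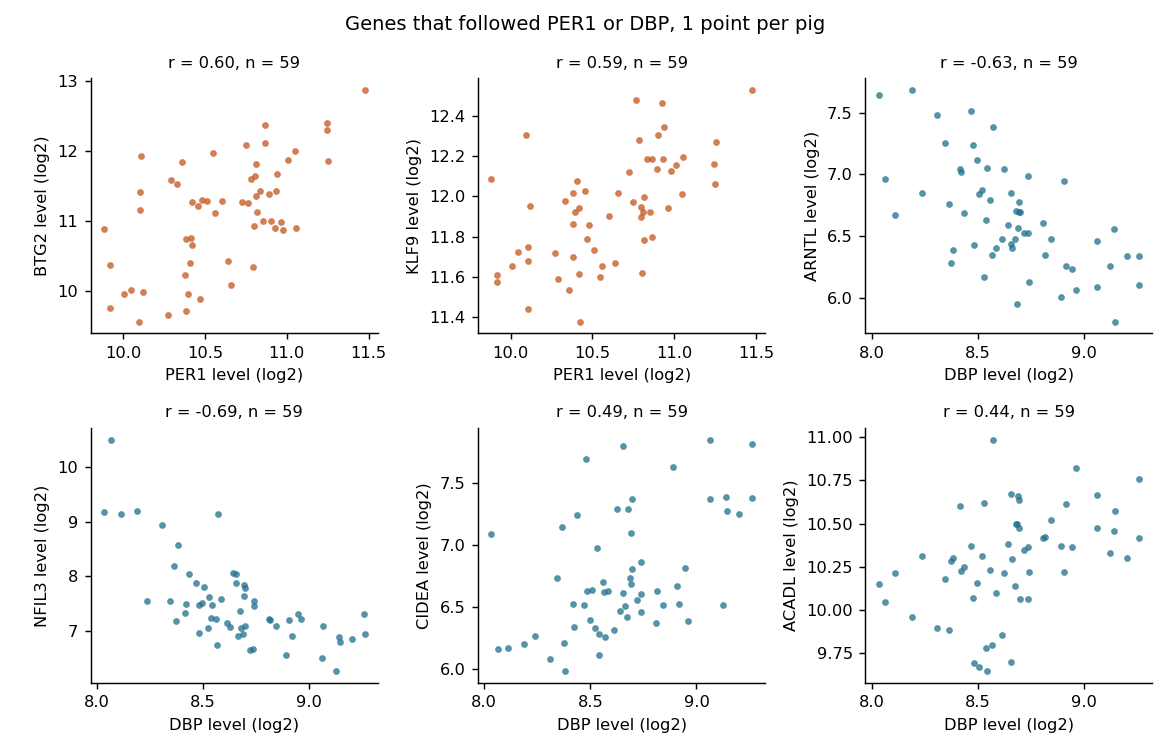
Levels (log2) of 6 genes against PER1 (orange) or DBP (blue), 1 point per pig, n = 59. BTG2 and KLF9 rose with PER1 (r = 0.60 and 0.59), ARNTL and NFIL3 fell with DBP (r = -0.63 and -0.69), and CIDEA and ACADL rose with DBP (r = 0.49 and 0.44).

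Of 4 adipocyte genes tested, CIDEA and CFD rose with DBP, and FABP4 and LEP did not pass. In whole muscle, more fat cells and more RNA per fat cell cannot be told apart. Of 16 listed adipocyte genes 9 were on the array and 4 were bright enough to test, FABP4, CFD, CIDEA and LEP; ADIPOQ and PPARG were below the filter at means of 5.56 and 5.00. The mean level of the 4 genes ran from 8.08 to 9.08 over the pigs. Their score correlated with DBP at r = 0.441 (95% interval 0.209 to 0.626, permutation p = 5.0e-04, adjusted p = 0.0030) and rho = 0.381 (permutation p = 0.00285, adjusted p = 0.0114), and r was 0.397 with the 2 most extreme DBP pigs left out (permutation adjusted p = 0.0149). The score itself had r = -0.460 with the first principal component, and given that component its r with DBP was 0.160 (permutation adjusted p = 0.393).

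Of the 4 genes, CIDEA, a lipid droplet protein (r = 0.494, limma adjusted p = 3.6e-04), and CFD, the secreted complement factor adipsin (r = 0.442, limma adjusted p = 0.00214), were higher with more DBP, beside 18.9% of all probe sets, a share that is also the background of the next lists. Of 5 lipogenesis genes, ELOVL6, a fatty acid elongase (r = 0.423, limma adjusted p = 0.0031), and ME1, a source of NADPH for fat synthesis (r = 0.373, limma adjusted p = 0.012), were higher too. Fibroblast markers moved with DBP as well: of 6 tested, DCN (r = 0.570), LUM (r = 0.472) and FBN1 (r = 0.348) were higher, and the mean level of the 6 ran from 9.16 to 10.33; their part in the adipocyte result was not tested.

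PER1 had r = 0.016 with the adipocyte score (95% interval -0.241 to 0.271, permutation p = 0.906, adjusted p = 0.906; rho = 0.072, permutation p = 0.585, adjusted p = 0.585), and none of the 4 genes passed limma or had an unadjusted p under 0.05. The slope of CIDEA differed between PER1 and DBP (limma adjusted p = 0.00366), and that of CFD did not pass (limma adjusted p = 0.0955). BHLHE40 had r = 0.165 (permutation p = 0.209, adjusted p = 0.279; rho = 0.179, permutation p = 0.174, adjusted p = 0.230), and none of the 4 passed limma, with 1 at an unadjusted p under 0.05. The dimmer BHLHE40 probe set gave the opposite sign and passed, at r = -0.331 (permutation adjusted p = 0.0342), so the direction for BHLHE40 and fat cell genes depends on the probe set. SCD, the desaturase that makes oleic acid, was lower with the brighter probe set (r = -0.360, limma adjusted p = 0.0200).

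The score of the subunits of oxidative phosphorylation, 59 tested of 80 listed, passed narrowly with BHLHE40 and not under every setting. It fell with BHLHE40 at r = -0.316 (95% interval -0.529 to -0.065, permutation p = 0.0154, adjusted p = 0.0461), with rho = -0.308 (permutation p = 0.0189, adjusted p = 0.0567). Here both probe sets gave 1 direction: the dimmer had r = -0.320 (permutation adjusted p = 0.0342). The call is close to the threshold, since leaving out any 1 of 18 pigs ended it, with r between -0.369 and -0.274 over all 59 omissions. It was also lost after quantile normalisation (r = -0.259, permutation adjusted p = 0.115) and given the first principal component (r = -0.338, permutation adjusted p = 0.0516). The 18 were pigs 10, 15, 16, 19, 20, 21, 34, 46, 49, 51, 52, 58, 59, 66, 69, 70, 71 and 72. With the 2 most extreme BHLHE40 pigs left out r was -0.344 (permutation adjusted p = 0.0269).

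Among the 59 subunits, 17 were lower with more BHLHE40 and 1 was higher, beside 14.9% and 13.1% of all probe sets, and 49 of the 59 slopes were below 0. The median slope was -0.03 log2 per SD, against -0.0009 over all genes, a small shift. CYCS, cytochrome c, led with r = -0.607 (limma adjusted p = 5.3e-05), followed by SDHD of complex II (r = -0.583, limma adjusted p = 2.0e-04) and COX7A2 of complex IV (r = -0.568, limma adjusted p = 1.6e-04). CYCS and SDHD were the 2 that still passed given the first principal component. With the dimmer probe set 9 were lower and none higher. The 1 subunit that was higher was ATP5G2 (r = 0.337, limma adjusted p = 0.0420).

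With PER1 and DBP the score did not pass. It had r = -0.105 with PER1 (95% interval -0.352 to 0.155, permutation p = 0.430, adjusted p = 0.516; rho = -0.172, permutation p = 0.192, adjusted p = 0.230) and -0.043 with DBP (95% interval -0.296 to 0.215, permutation p = 0.747, adjusted p = 0.815; rho = -0.094, permutation p = 0.481, adjusted p = 0.525). No subunit passed limma with PER1, and 1 had an unadjusted p under 0.05. With DBP 6 of 59 were lower and 2 higher, smaller shares than the 19.7% and 18.9% of all probe sets. Among the lower were NDUFB5 (r = -0.429) and COX7A2 (r = -0.426). The slopes of CYCS, COX7A2, ATP5A1 and ATP5G3 differed between PER1 and BHLHE40 (limma adjusted p from 0.0223 to 0.0490). None differed between DBP and BHLHE40 by limma, with 12 of 59 at an unadjusted p under 0.05.

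Some enzymes of fatty acid oxidation rose with DBP. Of 20 genes tested of 20 listed, 5 were higher with more DBP and none was lower, beside 18.9% and 19.7% of all probe sets, so the share that rose was not far from the background while no gene fell. They were ACADL and ACADM, dehydrogenases of long and medium chains (r = 0.441, limma adjusted p = 0.0021, and r = 0.361, limma adjusted p = 0.017), ACAA2 (r = 0.346), DECR1 (r = 0.334) and CPT2 (r = 0.305). With BHLHE40, 13.1% of all probe sets were higher and 14.9% lower. Among the 20 genes, CPT2, which releases acyl groups inside the mitochondrion, was higher (r = 0.482, limma adjusted p = 0.0018). ACSL1 and ETFDH were lower (r = -0.467 and -0.451). CPT2 had a mean of 6.30, close to the filter level of 6.27. None of the 20 passed limma with PER1, and 1 had an unadjusted p under 0.05. ACADL and ACADM had more positive slopes with DBP than with PER1 (limma adjusted p = 7.2e-04 and 0.00868) or BHLHE40 (limma adjusted p = 0.0136 and 0.0118). The total that differed between DBP and BHLHE40, 218, was 21 given the RNA index and 54 without the 2 extreme pigs. Given the first principal component, no probe set passed with DBP by limma. Among 13 tested genes of the TCA cycle, SUCLG2 and IDH3G were higher and DLST lower with both DBP and BHLHE40. CS, citrate synthase, was lower with BHLHE40 (r = -0.478, limma adjusted p = 0.0020). The background shares are those given above for DBP and BHLHE40.

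Genes of the mitochondrial ribosome and of protein import passed in both directions with DBP and BHLHE40, more often as lower than as higher. Of 76 genes of the mitochondrial ribosome and of protein import, 29 were lower and 9 higher with DBP, beside 19.7% and 18.9% of all probe sets. With BHLHE40 25 were lower and 6 higher, beside 14.9% and 13.1%, and these shares are also the background of the 8 regulators below. With DBP the strongest were HSPD1 (r = -0.683) and HSPA9 (r = -0.674), chaperones of the matrix, and TIMM22 of the inner membrane (r = -0.624). Of 8 regulators, PPRC1 (r = -0.601), PDK4 (r = -0.503) and PPARGC1A, the coactivator that drives mitochondrial growth (r = -0.423, limma adjusted p = 0.0030), were lower with DBP. TFAM, which packs mitochondrial DNA (r = -0.438, limma adjusted p = 0.0060), TFB1M, PPRC1 and PDK4 were lower with BHLHE40. None of the 76 or the 8 passed limma with PER1, with 2 and 1 at an unadjusted p under 0.05. With the dimmer BHLHE40 probe set 3 of the 76 were lower and 2 higher, and none of the 8 passed or had an unadjusted p under 0.05.

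**Figure D4:**
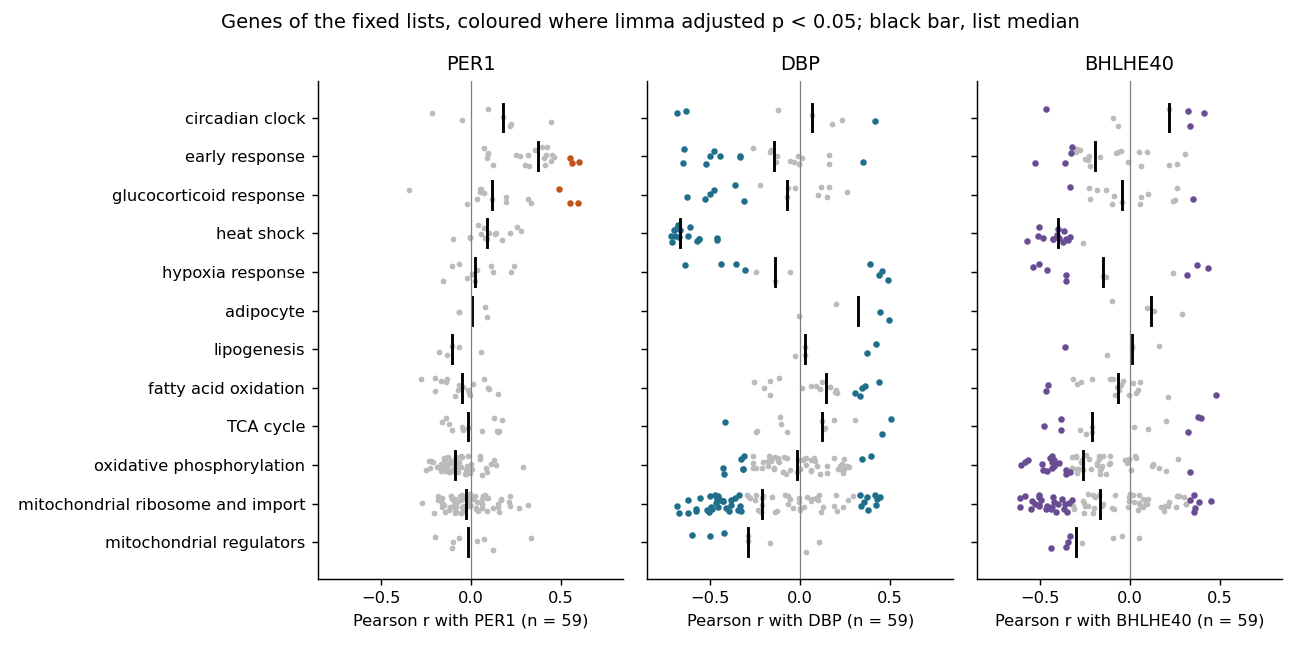
Pearson r over 59 pigs of every tested gene of 12 gene lists with PER1, DBP and BHLHE40 (brighter probe set); coloured points passed limma at an adjusted p of 0.05, grey points did not, and black bars are list medians. Early response genes lie right of 0 for PER1 and mostly left of 0 for the other genes, heat shock genes lie far left for DBP (median r = -0.667), and no mitochondrial gene is coloured for PER1.

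The strongest partners of DBP over all genes lay outside these lists. Higher with more DBP were NFIA, a transcription factor (r = 0.751, limma adjusted p = 2.3e-09), CXXC5 (r = 0.736), RHOBTB1 (r = 0.736), LOC100514494 (r = 0.731), AQP11, a water channel (r = 0.731), RTF1 (r = 0.726), FBXL4 (r = 0.724) and MTMR3 (r = 0.719). Lower were TGIF1, a repressor in TGF-beta signalling (r = -0.760, limma adjusted p = 9.0e-10), RRP15 and PES1, both of ribosome assembly (r = -0.756 and -0.736), GPAT4, an enzyme of glycerolipid synthesis (r = -0.748), JMJD6 (r = -0.736) and POLR1C, a subunit of RNA polymerases (r = -0.733). FBXL4 had the widest range of these, from 5.56 to 9.17. Other tested probe sets of NFIA followed the first at r = 0.669 and 0.287. Those of CXXC5 did so at r = 0.974 and 0.270, and that of TGIF1 at r = 0.942. Given the first principal component none of DBP's 4621 probe sets passed by limma, and 1125 had an unadjusted p under 0.05. Given the RNA index, a 3' minus 5' difference of 6 pairs of control probe sets that had r = 0.253 with DBP, 4519 passed.

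For BHLHE40 the nearest genes were TCFL5, a transcription factor of the same helix-loop-helix class (r = 0.663, limma adjusted p = 2.1e-05), UBL4A (r = 0.658), ZDHHC14 (r = 0.647), SMARCD3, a muscle chromatin remodelling subunit (r = 0.645), CHST10 (r = 0.639), TFDP2 (r = 0.633), CFDP1 (r = 0.625) and TXNDC15 (r = 0.623). Lower were CLTC, the clathrin heavy chain (r = -0.645, limma adjusted p = 2.1e-05), CNOT9 (r = -0.641), THUMPD1 (r = -0.640), SSB, the La protein (r = -0.635), YBEY (r = -0.633) and HSPA13 (r = -0.619). A second tested probe set of TXNDC15 and of YBEY did not follow the first (r = 0.049 and -0.049). Given the first principal component 82 probe sets passed with BHLHE40, and with its dimmer probe set 908 passed without that component.

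Genes that told the 3 apart were found by the same difference tests. XIRP1, a protein of muscle cell junctions that responds to injury, had the smallest p of the difference between PER1 and DBP. It was more positive with PER1 (0.73 ± 0.08 log2 per SD of standardised PER1 minus DBP, limma adjusted p = 1.0e-09). ATF3, with a larger slope, and HSPB1, a small heat shock protein, came next by p, while PPP1CC and HOXA3 were more positive with DBP. A second tested probe set of PPP1CC followed the first at r = 0.324. GJA1, the gap junction protein connexin 43, and KLF4 were more positive with PER1 than with BHLHE40 (limma adjusted p = 0.00191 and 0.00236), and MAD2L1 and ING2 more positive with BHLHE40. NFIB, IDH1 and CAT, the peroxide-removing catalase, were more positive with DBP than with BHLHE40 (limma adjusted p = 0.0100, 0.0116 and 0.0116), and FNTB, POLR1A and TMEM140 more positive with BHLHE40. All contrasts with BHLHE40 here are from its brighter probe set. Between PER1 and BHLHE40, 1114 probe sets differed, but 5 with the dimmer one and 7 given the first principal component. Between DBP and BHLHE40, 218 differed, but 21 given the RNA index and 3618 with the dimmer one.

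The 12 correlations are shown together under every setting tried. PER1 with the early response score passed in each of them, with r from 0.380 (mean of a gene's probe sets) to 0.612 (1 pig left out).

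**Figure D5:**
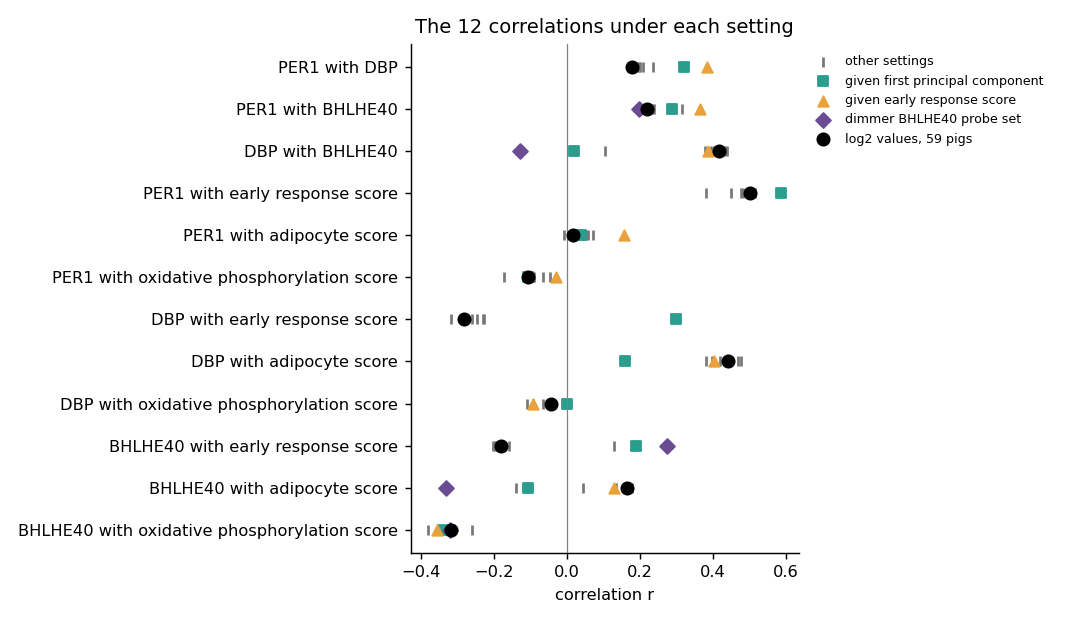
Correlation r of the 12 relations (rows) under each processing setting; the black point is the value from the 59 pigs, the teal square the value given the first principal component, the orange triangle that given the early response score and the violet diamond that of the dimmer BHLHE40 probe set. DBP with BHLHE40 falls from 0.415 to 0.021 given the component, while BHLHE40 with the oxidative phosphorylation score lies below 0 throughout.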

How the data were processed

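RNA of each muscle was hybridised to an Affymetrix porcine array, 1 array per pig (n = 59). The deposited log2 values are probe set levels that the authors normalised with GCRMA, per the submitters' processing notes. No source used here states the base of the logarithm, and the range of 2.39 to 15.04 was read as log2. The values were not normalised again. The number of arrays limits the precision. The labels give 59 separate animals, and no 2 arrays were identical; correlations between arrays ran from 0.968 to 0.995.

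Of 24123 probe sets, 124 controls were left out. The 12000 at or above the median mean level (6.27) were tested. Probe sets with 1 symbol in the platform annotation numbered 10069, with several 198; 9989 symbols were updated by gene identifier. A gene is represented by its brightest probe set. Slopes per SD of a member were fitted with limma 3.58.1 (R 4.3.3, lmFit and eBayes). Benjamini-Hochberg adjustment ran over all probe sets, with a threshold of 0.05. Differences used the difference of 2 standardised members, scaled again to SD 1. The 12 correlations used 100000 resamples (Python 3.11.15); covariates enter as partial correlations, and intervals are Fisher z. Scores are means of standardised genes.

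Simulated data had 200 changed probe sets among 11999, with noise drawn independently for each probe set. The fit recovered 16% (PER1), 12% (DBP) and 8% (BHLHE40) at r = 0.3, and 97%, 97% and 99% at r = 0.6. There were 3, 2 and 7 false calls. Real probe sets move together, the first principal component holding 20.0% of the variance, so these false calls give no error rate for the real data.

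Named genes are the members, the measured clock genes, for each member up to 8 highest and 6 lowest r among passing genes with the same sign and a p below 0.05 before adjustment once the 2 extreme pigs were dropped, up to 6 per list by p, and up to 6 per difference fit. Members and lists were chosen with earlier results of these data known. Alternatives were ranks, re-centring, quantile normalisation, no filter, the mean of a gene's probe sets, covariates and omission of pigs.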

Additional observations from a re-analysis of the deposited data

How the results depend on the processing

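No slaughter time, sex or array batch per pig entered a fit, since the labels give none. Signal limits BHLHE40, whose mean of 6.58 lies close to the median level of all probe sets, 6.27. No paired analysis was possible because there is 1 group. Of the values recomputed, 146 kept their direction and side of the threshold or stayed within 1.5 times, 31 counts moved further, 14 values changed sign, 7 lost their call and 5 gained one. The dimmer BHLHE40 probe set was added after seeing the data. The cause of the changes below was not tested.

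Among the correlations, PER1 with DBP passed given the early response score (0.384); PER1 with BHLHE40 passed given that score (0.364) and without the 2 extreme pigs (0.316). DBP with BHLHE40 no longer passed with the mean of a gene's probe sets (0.104) or given the first principal component (0.021), and turned to -0.127 with the dimmer probe set. PER1 with adipocyte genes, near 0, turned to -0.008 after re-centring, and ranged from -0.018 to 0.073 when single pigs were left out. DBP with early response genes passed with the mean of probe sets (-0.317), turned to 0.299 given the component, and ranged from -0.324 to -0.208 over single omissions. DBP with adipocyte genes fell to 0.160 given the component. DBP with oxidative phosphorylation, near 0, became 0.001 after quantile normalisation, 0.008 without the 2 extreme pigs and 0.001 given the component (-0.149 to 0.011 over single omissions). BHLHE40 with early response genes turned to 0.130 with the mean of probe sets, 0.189 given the component and 0.273 with the dimmer probe set; with adipocyte genes these were -0.139, -0.106 and -0.331. BHLHE40 with oxidative phosphorylation no longer passed by ranks (-0.308), after quantile normalisation (-0.259) or given the component (-0.338), and ranged from -0.369 to -0.274 over single omissions.

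The number of probe sets that followed PER1, 33, was 16 without the 2 extreme pigs, 99 given the component, 192 given the other members, 399 given the early response score, 112 with the mean of probe sets, 50 after quantile normalisation, 13 by ranks, and 18 to 59 over single omissions. DBP had 0 given the component by limma, with 1125 at an unadjusted p under 0.05. BHLHE40 had 2102 without the 2 extreme pigs, 82 given the component, 1063 given the other members, 1084 with the mean of probe sets and 908 with the dimmer probe set. Given the component, 296 differed between PER1 and DBP. Between PER1 and BHLHE40 7 differed given the component, 7 with the mean of probe sets, 699 by ranks, 5 with the dimmer probe set, and 300 to 1799 over single omissions. Between DBP and BHLHE40 54 differed without the 2 extreme pigs, 21 given the RNA index, 124 with no filter, 2320 with the mean of probe sets, 91 after quantile normalisation, 139 by ranks, 3618 with the dimmer probe set, and 51 to 357 over single omissions.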

Other observations

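Heat shock genes fell as DBP rose. All 15 tested were lower in pigs with more DBP, with r from -0.719 to -0.461 and a median of -0.667, beside 19.7% of all probe sets lower. HSPH1, a chaperone of the HSP110 family, had r = -0.719 (limma adjusted p = 1.4e-08) and stood at 10.55 in pig 16, which had the highest DBP, and at 12.95 in pig 32, which had the lowest. BAG3, a partner of HSP70, had r = -0.710 and DNAJA1 r = -0.703. With BHLHE40 14 of the 15 were lower by the brighter probe set, beside 14.9% of all probe sets, and none by the dimmer, whose 15 slopes were all above 0, with 1 at an unadjusted p under 0.05; with PER1 none passed by limma in either direction, with 2 above 0 at an unadjusted p under 0.05. The slope differed between PER1 and DBP for all 15. Given the first principal component none of the 15 passed limma with DBP, and 3 had an unadjusted p under 0.05.

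Hypoxia response genes passed in both directions with DBP, 4 higher and 4 lower of 11 tested, beside 18.9% and 19.7% of all probe sets. EGLN1, an oxygen sensor (r = 0.488), CA9 (r = 0.455), VEGFA (r = 0.441) and PFKFB4 (r = 0.390) were higher with DBP, and P4HA2 (r = -0.640), ANKRD37 (r = -0.442), HMOX1 (r = -0.354) and ADM (r = -0.308) were lower. Each value is from the brightest probe set of its gene. Whether other probe sets of these genes, VEGFA among them, give the same was not tested. With BHLHE40 3 were higher and 5 lower, beside 13.1% and 14.9%, and HIF1A, the oxygen-regulated factor itself, was lower (r = -0.537, limma adjusted p = 4.0e-04). CD163, a macrophage scavenger receptor, was lower with DBP (r = -0.435) and with BHLHE40 (r = -0.334), the 1 of 8 tested macrophage and leukocyte markers that passed with either. None of 8 endothelial markers passed limma with any of the 3 genes, with 1 at an unadjusted p under 0.05 for DBP, 1 for BHLHE40 and 0 for PER1.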
